A study of Mus musculus with 6 samples.

Results

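Myelinating oligodendrocytes wrap axons of the central nervous system in stacked membrane, and 9 genes that encode components of that membrane or of the cell's myelin-forming processes were followed here in mouse piriform cortex. The genes were chosen by name: Mbp, Mobp, Mal, Cnp, Cldn11, Ermn, Mag, Mog and Opalin. All 9 were present, as 1 row each, among the 53715 genes of the count table, and all 9 passed the filter on low counts that left 16721 genes for testing.

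Every library came from Gad2-Cre mice, in which Cre recombinase is made in cells that express Gad2, a GABA-synthesising enzyme. The animals of both groups received an adeno-associated virus in the piriform cortex of 1 side. The Caspase3 group (3 libraries) received AAV-DIO-Caspase3, a Cre-dependent form of the apoptotic protease, and the GFP group (3 libraries) received AAV-DIO-GFP as the control. The labels give no age, no interval after injection and no hemisphere for the tissue, and do not state whether each library is a different animal. The p-values therefore refer to the variation among the 6 libraries, part of which may be technical. Poly(A) RNA was sequenced in bulk, and total counts lay between 20424581 and 26268377. The virus was directed at Gad2-expressing cells, not at oligodendrocytes. Gad2 itself stood at 38.5 CPM (counts scaled to a common library size) or less in the Caspase3 libraries and at 92.4 CPM or more in the GFP libraries (log2 fold change -1.60, adjusted p = 0.00371 in edgeR's quasi-likelihood test).

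Myelin of the brain is built from a few abundant proteins and a lipid-rich membrane. Basic proteins such as Mbp hold the inner faces of the membrane together, transmembrane proteins join neighbouring turns, and glycoproteins at the innermost and outermost turns face the axon and the surroundings. Oligodendrocytes arise from precursor cells marked by Pdgfra, and the transcription factors Olig2, Sox10 and Myrf act in that lineage, with Myrf needed for the expression of myelin genes. The piriform cortex lies next to the lateral olfactory tract, a myelinated bundle that carries the output of the olfactory bulb.

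The DNA before the start sites is shown for 4 of the 9 genes, and its part in their levels was not tested. Of 10 short motifs searched on both strands, these 4 carry the letters ACAAAG, a form of the SOX protein motif, or a form of the MYRF motif (CTGGCAC in Mag and Cnp and CTGGTAC in Mog), in the 250 bases before the RefSeq start site, as Opalin does for ACAAAG. Sequences are from RefSeq (GRCm38.p6), read 5′ to 3′ on the gene's strand, without bases that lie inside the deposited gene, and capitals mark those letters on either strand.
Mobp (chr9:120149492-120149706, plus strand): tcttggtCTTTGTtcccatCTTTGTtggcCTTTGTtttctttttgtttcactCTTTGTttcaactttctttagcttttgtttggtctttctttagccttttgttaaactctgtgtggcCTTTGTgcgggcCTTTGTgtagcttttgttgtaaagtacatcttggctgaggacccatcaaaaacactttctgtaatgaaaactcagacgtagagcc
Mag (chr7:30914874-30915113, minus strand): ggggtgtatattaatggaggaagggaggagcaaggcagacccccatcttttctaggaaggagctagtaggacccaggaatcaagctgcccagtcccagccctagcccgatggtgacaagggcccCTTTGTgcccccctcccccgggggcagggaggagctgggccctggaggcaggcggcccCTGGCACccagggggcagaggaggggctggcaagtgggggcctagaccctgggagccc
Cnp (chr11:100574689-100574903, plus strand): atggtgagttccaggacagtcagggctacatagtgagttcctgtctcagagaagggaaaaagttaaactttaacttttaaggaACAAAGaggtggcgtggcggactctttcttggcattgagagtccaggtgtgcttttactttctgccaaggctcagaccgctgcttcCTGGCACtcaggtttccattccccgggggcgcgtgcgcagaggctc
Mog (chr17:37023399-37023648, minus strand): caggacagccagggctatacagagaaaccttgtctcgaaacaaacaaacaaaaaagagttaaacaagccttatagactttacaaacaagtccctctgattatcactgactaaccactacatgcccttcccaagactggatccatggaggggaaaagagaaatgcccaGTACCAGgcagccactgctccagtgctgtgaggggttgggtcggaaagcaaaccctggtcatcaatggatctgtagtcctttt

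Promoter windows of 300 bases (250 before and 50 after the start) were found for 8 of the 9 genes. ACAAAG was present in 4 of the 8, Mag, Mobp, Cnp and Opalin, against 18.7% of all 32851 windows. The Mobp window held 6 matches, starting 243 to 120 bases before the start site, and was the 1 window of 32851 with 6 or more, a count made after the sequence had been seen. CTGGCAC was present in 3 of the 8, Mag, Cnp and Opalin, against 5.01% of all windows, and CTGGTAC in Mog, against 2.24%. The match began 68 bases before the start in Mag, 81 in Cnp and 83 in Mog, whereas in Opalin it lay after the start. Ermn held the SOX form ACAATG (12.6% of all windows) and Opalin the OLIG E-box CAGCTG (16.3%). No match was found in the 8 windows for the SOX form AACAAT (10.7% of all windows), the OLIG E-box CATATG (3.91%), the TCF motif CTTTGAT (3.73%), the TATA box TATAAA (13.6%) or the interferon-stimulated response element (3.44%). The windows of Mal and Cldn11 held no match to any of the 10 motifs searched. Motif letters can overlap, as ACAATG and AACAAT do. These are letter matches only, and binding was not measured.

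None of the 9 genes passed the test between the groups. With edgeR's quasi-likelihood test, 0 of 9 had an adjusted p under 0.05 (adjusted p = 0.288 to 0.745), against 1.64% of all tested genes (1.53% higher in the Caspase3 group). DESeq2 and limma-voom also called 0. All 9 fitted differences were above 0, as were 49.8% of all tested genes, and their median log2 fold change was 0.35 (1.27-fold), beside -0.0011 over all tested genes. An unadjusted p under 0.05 was reached by 4 of the 9, Opalin, Mal, Cldn11 and Mog, against 10.6% of all tested genes (6.72% with the Caspase3 group higher). The median of the 9 was 0.15 without Caspase3 replicate 1, the library in which every one of them was highest. In bulk RNA, fewer or more cells of a type and less or more RNA per cell cannot be told apart.

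**Figure D1:**
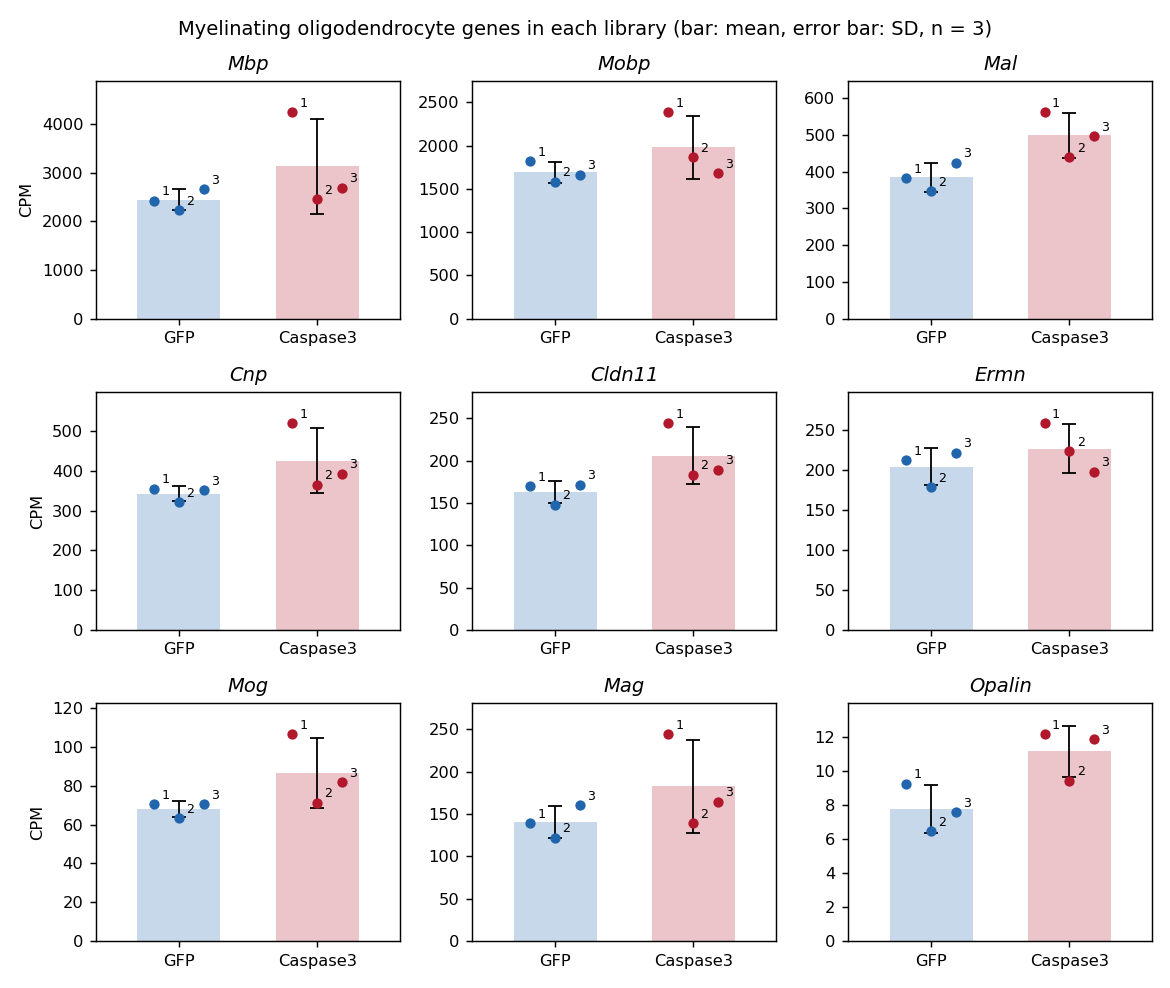
CPM of each gene in the 3 GFP and 3 Caspase3 libraries, 1 panel per gene, with library numbers beside the points, bars for the mean and error bars for the SD (n = 3). Caspase3 replicate 1 is the highest point and GFP replicate 2 the lowest in all 9 panels, and Mal is higher in all 3 Caspase3 libraries than in any GFP library.

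Among the proteins of compact myelin, Mbp had the highest count. Mbp (ENSMUSG00000041607, chromosome 18, 82475146 to 82585637, GRCm38) encodes the basic protein that joins the cytoplasmic faces of the membrane. It stood at 4242, 2448 and 2687 CPM in Caspase3 replicates 1, 2 and 3 and at 2425, 2232 and 2659 CPM in GFP replicates 1, 2 and 3. Only Caspase3 replicate 1 stood clear of the other 5 libraries, at 1.70 times their mean, and the groups overlapped. The means were 3126 ± 974 and 2439 ± 214 CPM (SD, n = 3 each), with a log2 fold change of 0.36 ± 0.21 (SE) and an adjusted p of 0.609 in edgeR's test. Without Caspase3 replicate 1 the log2 fold change was 0.08. The locus also yields Golli transcripts, which other cells make, and the counts are per gene and do not separate them.

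Mobp (ENSMUSG00000032517, chromosome 9, 120149707 to 120181484), another small basic protein of compact myelin, stood at 2389, 1867 and 1682 CPM in the Caspase3 libraries and at 1823, 1582 and 1667 CPM in the GFP libraries. Caspase3 replicate 3 lay below GFP replicate 1, so the groups overlapped, and the log2 fold change was 0.23 ± 0.16 (adjusted p = 0.673 in edgeR's test; 0.07 without Caspase3 replicate 1). An exon of Mobp overlaps a predicted gene on the same strand, which held 3 to 21 counts per library. Mal (ENSMUSG00000027375, chromosome 2, 127633226 to 127656695), a membrane protein of lipid-rich domains that acts in sorting to myelin, stood at 562, 439 and 496 CPM in the Caspase3 libraries and at 382, 346 and 425 CPM in the GFP libraries. Here the groups did not overlap, with a gap of 13.9 CPM between Caspase3 replicate 2 and GFP replicate 3. The log2 fold change of Mal was 0.38 ± 0.13, with an interval of 0.09 to 0.66 (95%, from the SE and the fit's degrees of freedom), an unadjusted p of 0.0159 and an adjusted p of 0.301 in edgeR's test. Without Caspase3 replicate 1, Mal kept a log2 fold change of 0.28 (adjusted p = 0.475).

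Of the genes for the cytoplasm-rich parts and junctions of myelin, 2 had groups that did not overlap and 1 had groups that did. Every Caspase3 library lay above every GFP library in 8.96% of all tested genes. Cnp (ENSMUSG00000006782, chromosome 11, 100574904 to 100591729) encodes a phosphodiesterase that keeps cytoplasm between myelin turns open. It stood at 521, 365 and 393 CPM in the Caspase3 libraries and at 356, 322 and 352 CPM in the GFP libraries. Caspase3 replicates 2 and 3 lay just above the GFP libraries, the lower of them by 9.66 CPM, and the log2 fold change was 0.31 ± 0.14 (adjusted p = 0.483 in edgeR's test; 0.15 without Caspase3 replicate 1). An exon of Cnp overlaps Dnajc7 on the opposite strand, which had 1656 to 2173 counts per library, and the sources used here give no strand setting for the counting, so reads of the 2 genes may not have been kept apart.

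Cldn11 (ENSMUSG00000037625, chromosome 3, 31149920 to 31164324), the claudin that seals neighbouring turns of myelin, stood at 244, 183 and 190 CPM in the Caspase3 libraries and at 170.1, 148 and 171 CPM in the GFP libraries. The lowest Caspase3 library exceeded the highest GFP library by 11.9 CPM, and the log2 fold change was 0.34 ± 0.13 (unadjusted p = 0.0286, adjusted p = 0.378 in edgeR's test). Without Caspase3 replicate 1 it was 0.20. Ermn (ENSMUSG00000026830, chromosome 2, 58045113 to 58052864), an actin-binding protein of the outer cytoplasmic lip and paranodal loops, stood at 258, 223 and 197 CPM in the Caspase3 libraries and at 212, 178 and 221 CPM in the GFP libraries. Its groups overlapped widely, Caspase3 replicate 3 lying below GFP replicates 1 and 3. Ermn had the smallest fitted difference of the 9, a log2 fold change of 0.15 ± 0.13 with an interval of -0.14 to 0.44 (adjusted p = 0.745 in edgeR's test). It was 0.05 without Caspase3 replicate 1 and 0.06 without GFP replicate 2. An exon of Ermn overlaps Galnt5 on the opposite strand, which had 2 to 16 counts per library.

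The surface proteins of myelin differed in how far they followed Caspase3 replicate 1. Mag (ENSMUSG00000036634, chromosome 7, 30899176 to 30914873), a sialic acid-binding receptor of the innermost turn that faces the axon, stood at 244, 139 and 164 CPM in the Caspase3 libraries and at 139, 122 and 160.3 CPM in the GFP libraries. GFP replicate 3 lay above Caspase3 replicate 2, so the groups overlapped, and the log2 fold change of 0.38 ± 0.20 (adjusted p = 0.555 in edgeR's test) was 0.11 without Caspase3 replicate 1. Mog (ENSMUSG00000076439, chromosome 17, 37010743 to 37023398), an immunoglobulin-domain protein of the outermost turn, stood at 107, 71.4 and 82.0 CPM in the Caspase3 libraries and at 70.6, 63.4 and 70.5 CPM in the GFP libraries. The groups did not overlap, but the gap was 0.799 CPM, and the log2 fold change was 0.35 ± 0.14 (unadjusted p = 0.0367, adjusted p = 0.419 in edgeR's test; 0.17 without Caspase3 replicate 1).

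Opalin (ENSMUSG00000050121, chromosome 19, 41062474 to 41077113), a transmembrane glycoprotein of oligodendrocytes, had the largest fitted difference and the lowest counts of the 9. It stood at 12.1, 9.41 and 11.8 CPM in the Caspase3 libraries and at 9.23, 6.45 and 7.55 CPM in the GFP libraries, from 163 to 300.0 counts per library. Caspase3 replicates 1 and 3 were both high, the groups did not overlap, and the gap between Caspase3 replicate 2 and GFP replicate 1 was 0.187 CPM. The log2 fold change was 0.52 ± 0.17, with an interval of 0.13 to 0.92, an unadjusted p of 0.0142 and an adjusted p of 0.288 in edgeR's test. Without Caspase3 replicate 1 it was 0.46 (adjusted p = 0.456), so Opalin and Mal were the 2 genes whose fitted value moved least when that library was left out.

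**Figure D2:**
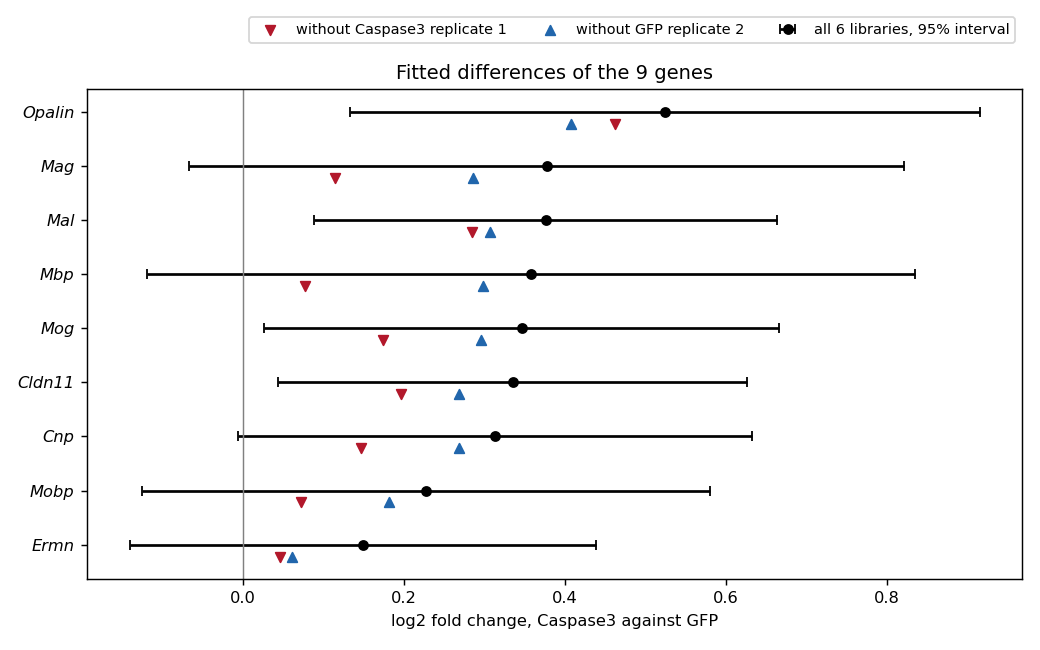
Log2 fold change of each gene, Caspase3 against GFP, with its 95% interval over all 6 libraries (black) and the value without Caspase3 replicate 1 (red) or without GFP replicate 2 (blue). All values lie above 0, from 0.15 for Ermn to 0.52 for Opalin over all libraries, and Mbp is at 0.08 without Caspase3 replicate 1.

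In all, 5 of the 9 genes, Mog, Cnp, Mal, Opalin and Cldn11, had every Caspase3 library above every GFP library, against 8.96% of all tested genes, and 0 had every Caspase3 library below, against 6.29%. The 9 genes share libraries and vary together, so these are not 5 separate observations. The same 5 were separate on the deposited FPKM scale. With library totals as the only scaling Mog overlapped and 4 were separate. The intervals of the 9 log2 fold changes ran from -0.14 at the lowest to 0.92 at the highest bound, and 5 of the 9 intervals included 0.

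The 9 genes shared their highest and lowest library, whereas the order of the libraries in between differed among them. Caspase3 replicate 1 was the highest library for all 9 genes and GFP replicate 2 the lowest for all 9, a combination seen in 10.1% of all tested genes (Caspase3 replicate 1 was highest in 27.1%). Relative to each gene's mean log2 CPM over the 6 libraries, the median of the 9 genes was 0.42 in Caspase3 replicate 1, 0.0085 in replicate 2 and 0.06 in replicate 3. It was -0.10, -0.28 and -0.09 in GFP replicates 1, 2 and 3. Caspase3 replicates 2 and 3 therefore lay closer to GFP replicates 1 and 3 than to Caspase3 replicate 1. The 9 genes together took 0.887%, 0.564% and 0.618% of all counts in the Caspase3 libraries and 0.542%, 0.481% and 0.574% in the GFP libraries, a mixture in which Mbp weighs most.

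**Figure D3:**
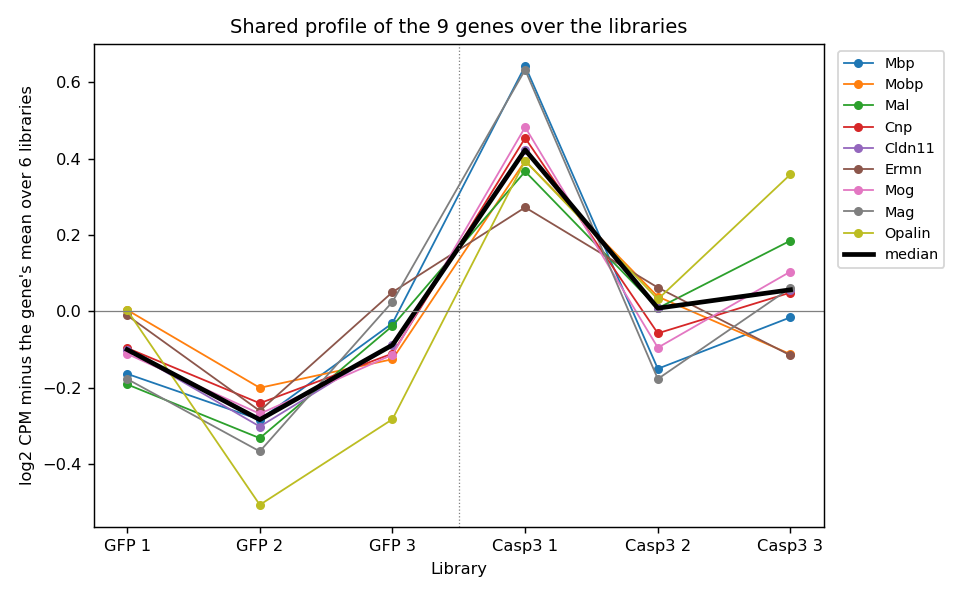
Log2 CPM of each gene minus its mean over the 6 libraries, by library, with the median of the 9 genes in black, where lines only join the values of 1 gene. The median is 0.42 in Caspase3 replicate 1 and between -0.28 and 0.06 in the other 5 libraries.

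Within that shared profile the genes differed in amplitude. The highest library exceeded the lowest 2.0-fold for Mag, 1.90-fold for Mbp and 1.88-fold for Opalin, but 1.51-fold for Mobp and 1.45-fold for Ermn. In Caspase3 replicate 1, Mag was at 1.68 times the mean of the other 5 libraries and Mobp at 1.39 times. The ratio of Mbp to Mobp in CPM was 1.78, 1.31 and 1.60 in the Caspase3 libraries and 1.33, 1.41 and 1.60 in the GFP libraries. That ratio varied within both groups and their ranges overlapped. The root mean square difference from the median profile was smallest for Cldn11 (0.0073 on the log2 scale) and largest for Opalin (0.178).

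Per kilobase of gene length, the order of the 9 genes was identical in all 6 libraries. On the deposited FPKM scale, means in the GFP and Caspase3 groups (SD, n = 3) were 289.9 ± 23.9 and 368 ± 112 for Mbp, 247 ± 17.1 and 286 ± 51.1 for Mobp, and 138 ± 13.4 and 178 ± 20.7 for Mal. They were followed by Cnp, Cldn11, Ermn, Mog and Mag, and Opalin was last at 4.21 ± 0.746 and 5.99 ± 0.765 FPKM. The ranges over the 6 libraries did not overlap between Mobp and Mal, between Cldn11 and Ermn, or between Mag and Opalin. The other neighbours (Mbp and Mobp, Mal and Cnp, Cnp and Cldn11, Ermn and Mog, Mog and Mag) had overlapping ranges, although the upper gene was above the lower in each of the 6 libraries. The length is that listed for the gene, 8403 bases for Mbp and 1704 for Mog, and not that of the transcripts made in this tissue.

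Other genes of mature oligodendrocytes and myelin did not pass either. Of 31 in the list, 0 passed edgeR's test, 3 had an unadjusted p under 0.05 and 30 had a fitted value above 0, with a median log2 fold change of 0.28, and of 0.11 without Caspase3 replicate 1. DESeq2 called 1 of the 31, Apod, an apolipoprotein that also marks meningeal cells, as higher (0 with limma-voom). With no filter on low counts edgeR called 2, Apod and Cryab, a small heat shock protein, both higher, named after their values were seen. Caspase3 replicate 1 was the highest library for 29 of the 31.

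Precursor genes did not pass, and their fitted values lay on both sides of 0. Of 15 precursor genes 0 passed edgeR's test and 0 had an unadjusted p under 0.05, DESeq2 and limma-voom called 0, the median log2 fold change was 0.01 (8 of 15 above 0, from -0.29 to 0.38), and Caspase3 replicate 1 was the highest library for 2 of 15. The groups did not overlap for 1 of the 15, Xylt1, lower in the Caspase3 group, and Megf11 alone was called, as higher, without Caspase3 replicate 1, both named after their values were seen. The growth factor receptor Pdgfra stood at 107, 102 and 99.3 CPM in the Caspase3 libraries and at 110.5, 98.0 and 97.9 CPM in the GFP libraries (log2 fold change 0.01 ± 0.09). Ptprz1, a receptor phosphatase that astrocytes also make, had a log2 fold change of -0.14 (adjusted p = 0.767). The ratio of Mog to Pdgfra in CPM was 0.993, 0.701 and 0.826 in the Caspase3 libraries and 0.639, 0.647 and 0.721 in the GFP libraries. GFP replicate 3 lay above Caspase3 replicate 2, so this ratio too overlapped between the groups. Of 9 tested genes of newly formed oligodendrocytes 0 passed with edgeR, DESeq2 or limma-voom and 0 had an unadjusted p under 0.05, and the median was 0.21, or 0.03 without Caspase3 replicate 1. Bcas1, a marker of early myelinating cells, stood at 293, 201 and 203 CPM in the Caspase3 libraries and at 202, 188 and 185 CPM in the GFP libraries, just overlapping (log2 fold change 0.28 ± 0.15, adjusted p = 0.567, and 0.08 without Caspase3 replicate 1).

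Among 18 transcription factors of the lineage 0 passed with edgeR, DESeq2 or limma-voom and 1 had an unadjusted p under 0.05, with a median of 0.02. That 1 was Myrf, the activator of myelin genes, named here after its values were seen. Myrf stood at 108, 68.3 and 78.2 CPM in the Caspase3 libraries and at 65.5, 55.7 and 67.7 CPM in the GFP libraries. The groups did not overlap, by less than 1 CPM, Caspase3 replicate 1 was again the highest and GFP replicate 2 the lowest, and the log2 fold change was 0.43 ± 0.16 (adjusted p = 0.370 in edgeR's test). With no filter on low counts edgeR called Myrf as higher. Sox10 and Olig2, also named after their values were seen, were at 0.35 and 0.03 on the log2 scale (adjusted p = 0.633 and 0.964). Zeb2, the factor of the list with the highest mean CPM, was at 0.01 and at -0.00035 with DESeq2.

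Genes for the lipids of myelin did not pass. Of 14 genes for galactolipid and sphingolipid synthesis 0 passed and 0 had an unadjusted p under 0.05 (median 0.05), and of 22 cholesterol synthesis genes 0 passed and 4 had an unadjusted p under 0.05 (median -0.10, with 7 of 22 above 0). DESeq2 and limma-voom called 0 in both lists. Scd2, a fatty acid desaturase, and Hmgcs1, an early enzyme of cholesterol synthesis, showed differences of 0.04 ± 0.13 and -0.27 ± 0.13 on the log2 scale (adjusted p = 0.943 and 0.538). Scd2 was at -0.04 without Caspase3 replicate 1.

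Genes of the contact between myelin and axon and of signalling to the lineage did not pass either. The count with edgeR was 0 of 15 axon-glia junction genes (2 with an unadjusted p under 0.05, median -0.10), 0 of 12 myelin-associated inhibitors and their receptors (0, median 0.01) and 0 of 19 signals and receptors (4, median 0.04). DESeq2 and limma-voom called 0 in each. With no filter on low counts edgeR called 2 of the signals and receptors, Axl (higher) and Erbb4 (lower), named after their values were seen. Ank2, an axonal ankyrin, Rtn4, the Nogo protein that limits axon growth, and Ntrk2, the receptor of brain-derived neurotrophic factor, were at -0.06, -0.17 and -0.15 on the log2 scale (adjusted p = 0.902, 0.715 and 0.729). With library totals as the only scaling Ank2 was at 0.0033.

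The 1 list with genes past the threshold was that of genes reported in oligodendrocytes in injury and disease, which microglia, astrocytes and other cells also express. Of its 10 genes 5 rose and none fell, with a median of 0.96. H2-K1 and H2-D1, class I antigen-presenting molecules, rose by 2.04 ± 0.24 and 2.12 ± 0.26 on the log2 scale, and B2m, their light chain, by 1.89 ± 0.24 (adjusted p = 0.00492, 0.00569 and 0.00569 in edgeR's test). Reads of H2-K1 and H2-D1 may be divided among near-identical copies. The others were C4b, a complement component, and Serpina3n, a protease inhibitor. None of the 5 passed without GFP replicate 2 (adjusted p of H2-K1, B2m and H2-D1 0.0562, 0.0562 and 0.0584), where the list median was 0.95. Bulk RNA does not show which cells carried these transcripts, and this list was drawn up with earlier results for some of its genes known.

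**Figure D4:**
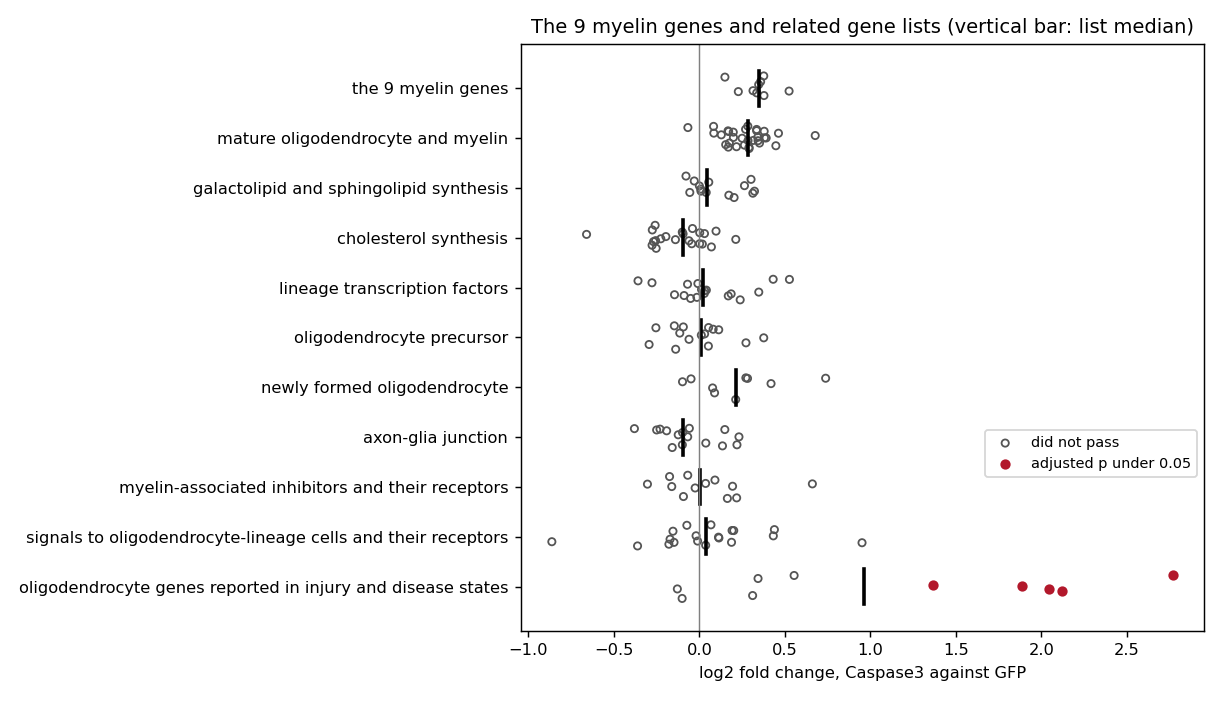
Log2 fold change, Caspase3 against GFP, of the 9 myelin genes and of the tested genes of 10 related lists, 1 point per gene, with a vertical bar at each median. Filled points mark an adjusted p under 0.05 in edgeR's test, which are 5 genes of the injury and disease list, and the medians of the 9 genes and of the other mature genes are 0.35 and 0.28.

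Some marker lists of other cells had the same highest and lowest library as the 9 genes, and others did not. The summed CPM of 6 microglia markers was 407 to 547 in the Caspase3 libraries and 275 to 320 in the GFP libraries (4 of 6 passed edgeR's test, and none was at 0 in any library). For 6 astrocyte markers the sums were 2695 to 3499 and 2414 to 3013 (1 passed, Gfap), and for 6 markers of meninges and fibroblasts 63.8 to 171 and 45.8 to 94.5 (0 passed, 2 with an unadjusted p under 0.05). All 3 sums were highest in Caspase3 replicate 1 and lowest in GFP replicate 2, as were the 9 genes. The sum of 4 endothelial markers was 252 to 297 in the Caspase3 libraries and 243 to 315 in the GFP libraries, highest in GFP replicate 3 (0 passed, and 0 had an unadjusted p under 0.05). The sum of 7 neuron markers ran the other way, lowest in Caspase3 replicate 1 (7510) and highest in GFP replicate 2 (10821). It was 7913 and 8847 in the other Caspase3 libraries and 9791 and 8247 in the other GFP libraries. Most of that sum came from Snap25, Syt1 and Map2, and the single markers did not move together. Snap25 was lowest in Caspase3 replicate 1 (2662 CPM) and Syt1 in GFP replicate 3 (1915 CPM). Map2 and Nefl were lowest in Caspase3 replicate 3, and Rbfox3 and Nefm in Caspase3 replicate 2. Tubb3 was highest in Caspase3 replicate 1 (177 CPM). The share of counts from mitochondrial genes was 9.25%, 8.67% and 7.45% in Caspase3 replicates 1, 2 and 3 and 8.65% to 9.41% in the GFP libraries, so that Caspase3 replicate 3 lay below every GFP library. The part of these differences in the values of the 9 genes was not tested.

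**Figure D5:**
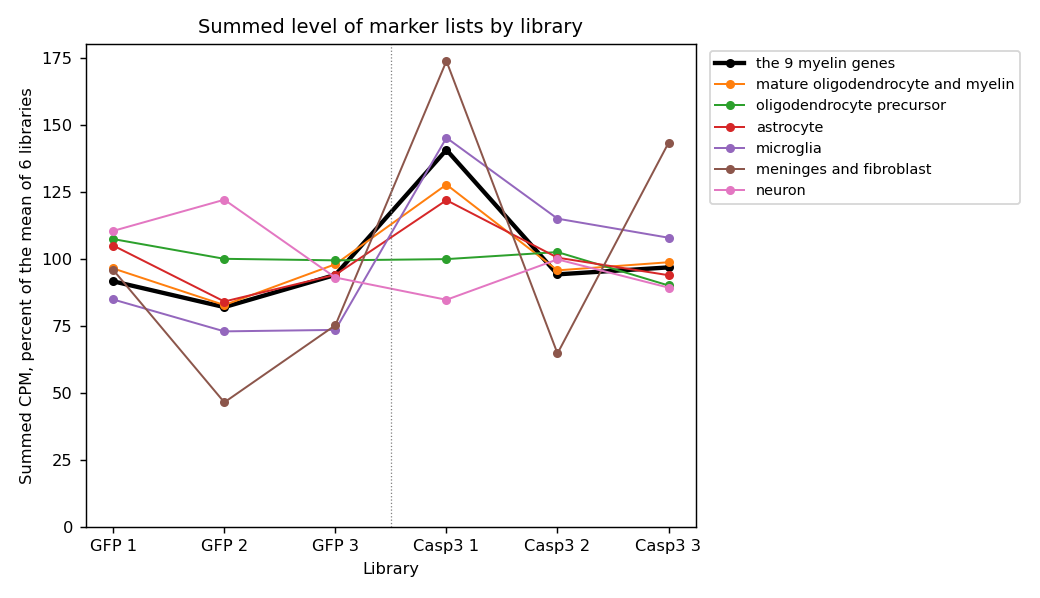
Summed CPM of marker lists by library, as a percentage of the mean of the 6 libraries, where lines only join the values of 1 list. The sums of the 9 myelin genes and of the microglia, astrocyte and meningeal lists peak in Caspase3 replicate 1. The neuron sum is lowest there, and the precursor sum (1367 to 1630 CPM) is nearly level.

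Tissue from outside the cortex was also examined. Of 10 markers of striatal projection neurons, the sum was 1346 CPM in GFP replicate 3 and 251 to 384 CPM in the other 5 libraries, while the 9 myelin genes summed to 5734 CPM in GFP replicate 3, inside the range of the other libraries (5000.3 to 8579). Of 5 Schwann cell markers, looked at for peripheral nerve, 3 were tested, 0 passed, and the sum was 74.6 to 90.3 CPM. Drp2 alone stood at 72.9 to 88.1 CPM, and the other tested markers had group means of 0.611 to 1.17 CPM. The sum therefore reflects 1 gene and not the list. Choroid plexus markers summed to 0.922 to 2.80 CPM, with Otx2 at 0 in all libraries.

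The tested genes whose profile over the 6 libraries was most like the median of the 9, by root mean square difference in centred log2 CPM among the 11319 genes averaging 5 CPM or more, included Fah, Ech1, Psph, Rps9 and Rhpn2. Their differences were 0.034 to 0.04, beside a median of 0.260 over all genes ranked. None of the 5 was in a list used here, and none passed edgeR's test (adjusted p = 0.375 to 0.580). Fah, the last enzyme of tyrosine breakdown and the closest of them, stood at 16.7, 12.5 and 12.7 CPM in the Caspase3 libraries and at 11.8, 10.7 and 12.2 CPM in the GFP libraries. Its groups did not overlap, by less than 1 CPM. Of 29 ranked genes of the mature oligodendrocyte list, 7 were among the first 200 of all 11319 genes ranked.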

How the data were processed

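The authors deposited a table of read counts per gene and a table of FPKM values for the 6 libraries, per the file headers. Per the submitters' processing notes, which give no roles, the tools were featureCounts, HISAT2 and DESeq2 and the build GRCm38 (mm10). Whether counting used the strand is not stated there. Deposited FPKM values are counts over gene length and over a constant for each library.

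Counts were tested with the quasi-likelihood test of edgeR 4.0.16 (R 4.3.3) on all 6 libraries, with group as the only term, filterByExpr and TMM scaling, with Benjamini-Hochberg adjustment over the 16721 genes that passed the filter and a threshold of 0.05. CPM were computed from counts and TMM factors; 3 counts correspond to 0.118 to 0.142 CPM. The SE is the absolute log2 fold change divided by the square root of F. Groups and sample numbers came from the titles. Replicates differed by more than sampling noise (mean chi-square per gene 12.6 to 32.8). The script was tested on simulated data.

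The 9 genes and the 10 related lists (167 symbols, 166 in the table, 165 tested) were chosen with earlier results of these data known. Named are the 9 genes; from each list up to 3 genes past the threshold with the smallest adjusted p, otherwise the 1 with the highest mean CPM; and the 6 genes most like the median profile. Some genes that this rule names are not reported here. Pdgfra, Apod, Myrf, Sox10, Olig2, C4b, Serpina3n, Gfap, Drp2, Otx2 and the single neuron markers were named with their values known. Alternatives used RLE, upper-quartile or no factors, DESeq2 1.42.0, limma 3.58.1 (voom, and on log2(FPKM + 1) and log2(FPKM + 0.1)), other filters, a threshold of 0.1, the sample number as a block, and left-out libraries. Counts of non-overlapping groups under other scalings were added after seeing the data. Exon overlaps are from GENCODE M21 (GRCm38); figures were drawn with Matplotlib 3.10.9.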

Additional observations from a re-analysis of the deposited data

How the results depend on the processing

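All 9 genes kept a log2 fold change above 0 and an adjusted p above 0.05 in the main analysis and each of the 17 alternatives. The smallest adjusted p was 0.109 (Opalin), and none was called at a threshold of 0.1. The median of the 9 ranged from 0.15 (without Caspase3 replicate 1) to 0.46 when 1 library was left out, and was 0.20 without Caspase3 replicate 1 and GFP replicate 3. Over all genes, 274 were called, against 913 with no filter on low counts, 497 with DESeq2, 170 with limma on log2(FPKM + 1) and 17 to 285 with 1 library left out (17 without GFP replicate 2, 144 without GFP replicate 3), and 337 without Caspase3 replicate 1 and GFP replicate 3. Of the related lists 5 genes were called, against 11 with no filter and 0 to 7 with 1 library left out (0 without GFP replicate 2); the causes were not tested. Whether the sample numbers of the titles pair the libraries could not be settled from correlations of their deviations. Same-numbered libraries had correlations of 0.111, 0.219 and 0.0364, and libraries with different numbers -0.152 to 0.0458. Each Caspase3 library correlated best with the GFP library of its own number, whereas GFP replicate 3 correlated best with Caspase3 replicate 1. With the replicate block 421 genes, 0 of the 9 and 6 genes of the lists were called, and the median of the 9 was 0.33. Among named genes, the sign turned for Scd2 without Caspase3 replicate 1 (-0.04, in a range of -0.04 to 0.10 with 1 library left out) and without Caspase3 replicate 1 and GFP replicate 3 (-0.052), for Ank2 with library totals (0.0033), and for Zeb2 with DESeq2 (-0.00035), without Caspase3 replicate 2 (-0.05), without GFP replicate 3 (-0.10, in a range of -0.10 to 0.12) and without Caspase3 replicate 1 and GFP replicate 3 (-0.06); none of these 3 was called. Of the 9 genes, 4 had non-overlapping groups with library totals and 5 on the FPKM scale. Leaving out a library can only keep or add to that count at 1 scaling, as for any set of genes, and gave 5 to 7. The share of all tested genes with every Caspase3 library higher was 8.96% in the main analysis. Shares under these other settings are not given here, so these counts cannot be set against them.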
